A study of Xenopus laevis with 12 samples.

Results

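The genes described here are the ligands, receptors and transcription factors of Hedgehog signaling in the early *Xenopus laevis* embryo. They are the ligand genes *shh*, *ihh* and *dhh*, the receptor gene *ptch1*, the transducer gene *smo*, the inhibitor gene *hhip*, and the transcription factor genes *gli1*, *gli2* and *gli3*. Their probe sets were those to which the array annotation gives 1 gene symbol, once the ending for the L or S copy of the frog's duplicated genome is removed. All 9 genes were found, on 14 of the 15491 probe sets tested. Of the 14, 8 read an L copy and 6 an S copy.

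RNA was taken from stage 15 embryos, when the neural plate is still open, and measured on Affymetrix arrays, 3 for each of 4 tissues. The tissues were the eye field (EF, labeled eye primordia), which by the study's text included the mesendoderm beneath it, the posterior neural plate (PNP), the lateral endoderm (LE), a piece of the flank, and whole embryos, to which the study set the regions. Each regional array took RNA pooled from many dissected pieces, and by the study's methods the triplicates came from different days and females. No treatment or transgene is given for these 4 groups, and strain and genotype are not given in the sources used here.

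Hedgehog ligands are secreted proteins that bind Ptch1, which otherwise holds Smo inactive. Active Smo, working at the primary cilium, changes Gli proteins from repressors of transcription to activators, with Gli3 acting mostly as a repressor and Gli1 only as an activator. In vertebrate embryos Shh from the notochord, the floor plate and the prechordal plate patterns the ventral neural tube, and at the front of the neural plate it splits the single eye field into a left and a right eye. *ptch1*, *hhip* and *gli1* are themselves switched on by the pathway in many tissues.

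Values are log2 signal intensities. Background on an array was bounded by its brightest Bacillus control probe set of 24, here called the ceiling, at 2.10 to 2.77, with 61.1% to 82.0% of the probe sets tested above it. A difference was called where limma, fitted over all 12 arrays and adjusted over the 15491 probe sets, gave an adjusted p under 0.05. Marker genes were read as a check of the labels. All 7 eye field markers measured exceeded whole embryos in EF, with a summed linear signal of 937 to 1340 in EF against 224 to 407 in whole embryos, and the 5 posterior neural plate markers measured were all higher in PNP than in whole embryos. The study lists *cdx1* and *cdx4*, which are among these PNP markers, for all germ layers of that region. It lists *derriere*, the frog name of the PNP marker *gdf3*, for mesoderm there. These PNP markers therefore do not mark neural tissue alone. In LE, all 7 endoderm markers measured lay above the ceiling, at a sum of 624 to 704 against 538 to 713 in whole embryos, and epidermal markers summed to 4850 to 5800, against 4350 to 4910 in whole embryos. PNP carried markers of muscle and paraxial mesoderm at 1730 to 1900, against 825 to 1100 in whole embryos. Of the 6 measured, 4 were called higher in PNP than in whole embryos, 1 lower and 1 not. The muscle genes *mylpf* and *myl1* averaged 5.92 and 8.23 in PNP, against 7.66 and 7.80 in whole embryos. Whether a gene differed through the number of cells that use it or through its RNA per cell cannot be told apart in such tissue pieces.

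Signal was concentrated in few of the Hedgehog probe sets. The probe sets for *shh*, *gli3* and 2 of the 3 for *smo* lay above the ceiling on all 12 arrays, 7 others on 1 to 11 arrays, and those for *ihh*, the S copy of *dhh* and *gli1* on none. Of the 14 probe sets, 10 passed a filter that asks for a signal above the ceiling on at least 3 arrays.

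*shh*, the ligand gene of the embryonic midline, was highest in PNP and lowest in LE. Its L copy, the copy measured (Xl.866.1.S2_at), had log2 signals of 7.30, 7.40 and 7.38 in PNP, of 6.28, 4.93 and 6.01 in EF and of 2.51, 2.80 and 3.80 in LE, against 5.38, 5.32 and 5.44 in whole embryos. All PNP arrays lay above all others and all LE arrays below all others, while the EF arrays spanned the whole-embryo arrays on both sides. PNP exceeded whole embryos 3.94-fold in *shh*, a log2 difference of 1.98 (SE 0.34, adjusted p = 0.00127 by limma). In LE *shh* lay 5.07-fold below whole embryos, at -2.34 (SE 0.34, adjusted p = 0.00123 by limma).

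In EF, *shh* averaged 5.74 ± 0.72, against 5.38 ± 0.06 in whole embryos (SD, n = 3 each). The difference of 0.36 was not called (95% interval -0.38 to 1.11, adjusted p = 0.497 by limma). It rested on single arrays, at 0.77 without EF replicate 2 and at 0.09 without EF replicate 1, and was called in neither case. Between the regions, *shh* was lower in EF than in PNP by 1.62 on the log2 scale, which is 3.06-fold (adjusted p = 0.00422 by limma). EF exceeded LE in *shh* by 2.70, or 6.51-fold, and PNP exceeded LE by 4.32, or 19.9-fold. The order of the tissues was thus PNP, EF, whole embryos and LE, with EF and whole embryos the neighbors that were not separated.

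**Figure D1:**
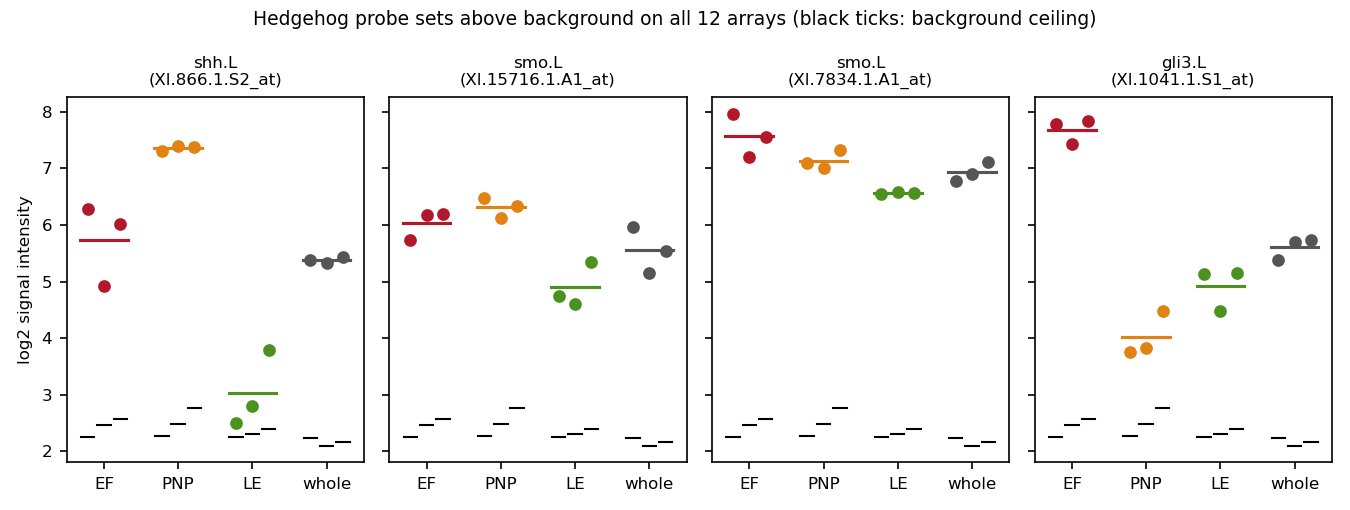
Log2 signal intensity (vertical axis) of the 4 Hedgehog probe sets above background on all 12 arrays, by tissue (horizontal axis, whole embryos at the right as whole). Each point is 1 array, each colored line the mean of 3 arrays and each black tick the background ceiling of that array. The 3 PNP points of *shh* lie between 7.30 and 7.40, above every other tissue, and the 3 EF points of *gli3* between 7.43 and 7.84.

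The summed signals of notochord and floor plate markers and of prechordal and anterior endomesoderm markers also varied over these arrays. Of 7 notochord and floor plate markers, 6 were measured, and their linear signals summed to 86.4, 57.1 and 111 in EF, to 620 to 750 in PNP and to 46.6 to 47.5 in LE, against 78.2 to 84.2 in whole embryos. In PNP, 5 of these 6 genes were called higher than in whole embryos. The other, *col2a1*, averaged 3.44 in PNP against 4.16 in whole embryos. Of the 5, *ntn1* averaged 2.40 in PNP, under the mean ceiling of the PNP arrays, 2.51. In EF, 1 of the 6 was called higher than in whole embryos and 1 lower. The 5 markers of prechordal and anterior endomesoderm summed to 94.0, 53.3 and 121 in EF, to 32.8 to 42.2 in PNP and to 33.5 to 40.9 in LE, against 77.1, 39.7 and 61.9 in whole embryos. Within EF, replicate 2 had the lowest value of *shh* and of both sums. Of the 5 prechordal genes, 4 lay above the ceiling on all 3 arrays in EF, 3 in PNP and 3 in LE, against 4 in whole embryos. Only *dkk1* and *gsc* were called higher in EF than in whole embryos, while *cer1* averaged 2.62 in EF against 3.47 in whole embryos and *frzb* 3.54 in EF against 4.44. The EF pieces held mesendoderm by the way they were taken, and its part in the *shh* signal of EF was not tested. Whether the PNP pieces held notochord is not given, and any part of it in their *shh* signal was not tested.

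**Figure D2:**
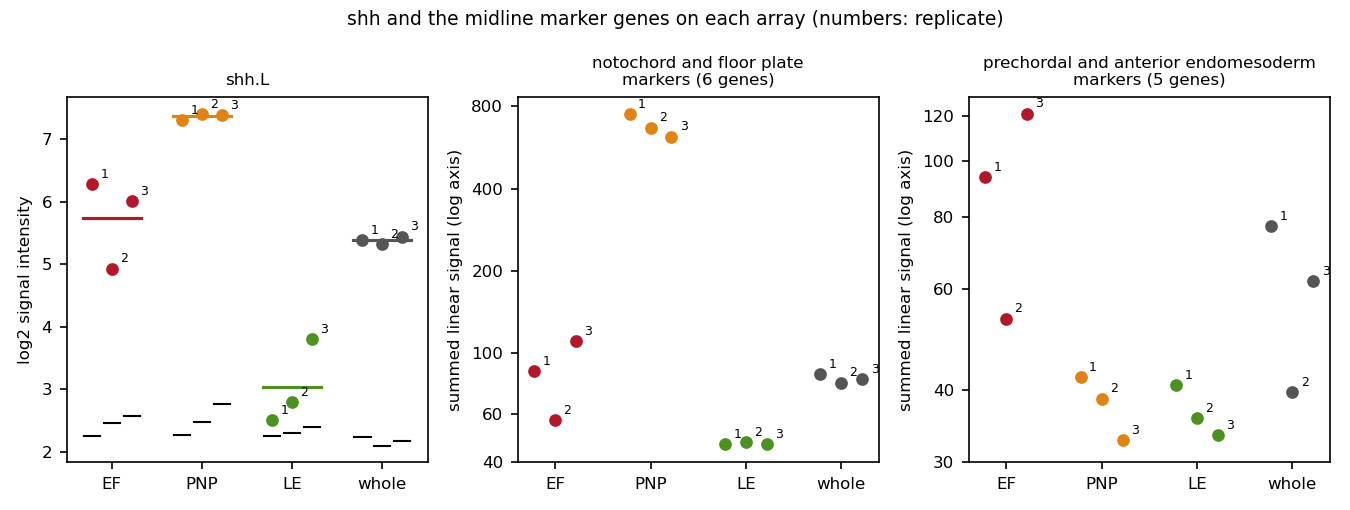
Log2 signal of *shh* (left), and summed linear signal of 6 notochord and floor plate markers (middle) and of 5 prechordal and anterior endomesoderm markers (right, both on log axes), by tissue, whole embryos at the right as whole. Each point is 1 array with its replicate number, lines are means of 3 arrays and black ticks background ceilings. PNP is highest in *shh* and in the notochord sum, at 620 to 750, and EF replicate 2 is the lowest EF array in all 3 panels.

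The other ligand genes lay at background on nearly all arrays. *ihh* acts in endoderm and cartilage and is known in the frog as banded hedgehog. Only its S copy was measured. This copy had log2 signals of 2.07 to 2.11 in EF, of 2.05 to 2.27 in PNP and of 2.13 to 2.24 in LE. In whole embryos it had 1.70 to 2.02, and all these signals lay under the ceiling. *dhh*, which acts in gonads and in nerve sheaths of mammals, had 1.90 to 2.02 for the L copy in EF, 1.94 to 1.99 in PNP and 1.87 to 1.92 in LE, against 1.83 to 2.22 in whole embryos, where replicate 3 alone passed the ceiling. The S copy lay between 1.86 and 2.13 on the 12 arrays. None of these 3 probe sets was called in any comparison. A signal under the ceiling only bounds a level and does not show that the transcript was absent.

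The receptor gene *ptch1* was near background throughout. Its S copy had log2 signals of 2.31, 2.64 and 2.21 in EF, of 2.20, 2.38 and 2.15 in PNP and of 2.31, 1.93 and 2.01 in LE, against 2.24, 2.07 and 2.11 in whole embryos. It lay above the ceiling on 2 EF arrays, 1 LE array and 1 whole-embryo array, and on no PNP array, and the tissues overlapped in all 6 comparisons. The interval that reached farthest from 0 was that of EF against LE, where the difference was 0.30 (95% interval -0.02 to 0.63, adjusted p = 0.177 by limma). *shh* and *ptch1* therefore differed in what the arrays could show, with the ligand gene called in 5 of the 6 comparisons and the receptor gene in none.

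*smo*, the transducer that Ptch1 restrains, was read by a pair of L probe sets and 1 S probe set. The L probe set Xl.7834.1.A1_at had log2 signals of 7.96, 7.20 and 7.56 in EF, of 7.09, 7.0 and 7.32 in PNP and of 6.54, 6.59 and 6.57 in LE, against 6.78, 6.90 and 7.11 in whole embryos. The L probe set Xl.15716.1.A1_at had 5.74, 6.17 and 6.20 in EF, 6.47, 6.13 and 6.34 in PNP and 4.75, 4.61 and 5.35 in LE, against 5.96, 5.15 and 5.54 in whole embryos. On both probe sets every EF and every PNP array exceeded every LE array.

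*smo* was thus higher in the EF and PNP pieces than in LE. On Xl.7834.1.A1_at, EF exceeded LE by 1.01 (2.01-fold, adjusted p = 0.00116 by limma), and on Xl.15716.1.A1_at by 1.13 (2.19-fold, adjusted p = 0.00346). The methods' t-test called neither of these (adjusted p of 0.0625 and 0.0752). PNP exceeded LE by 1.41 on Xl.15716.1.A1_at (2.65-fold, adjusted p = 0.000691 by limma). On Xl.7834.1.A1_at PNP exceeded LE by 0.57 (adjusted p = 0.0325), a call lost without PNP replicate 1 or 3 or without any LE array (adjusted p of 0.0647 to 0.0993).

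Against whole embryos, the *smo* probe sets gave different calls. Xl.7834.1.A1_at was called higher in EF, by 0.64 (SE 0.18, adjusted p = 0.0245 by limma), and Xl.15716.1.A1_at was not, at 0.48 (95% interval -0.03 to 1.00, adjusted p = 0.176). In PNP the calls were the other way round, with 0.76 on Xl.15716.1.A1_at (SE 0.23, adjusted p = 0.0358 by limma) and 0.21 on Xl.7834.1.A1_at (95% interval -0.18 to 0.59, adjusted p = 0.435). Neither call against whole embryos held through the removal of each array in turn. That for EF did not survive the removal of EF replicate 1 or 3 or of whole-embryo replicate 1 or 2 (adjusted p of 0.0582 to 0.0920), and that for PNP did not survive the removal of PNP replicate 1 or 3 or of whole-embryo replicate 2 or 3 (adjusted p of 0.0768 to 0.134). A fit of the compared pair alone lost both calls (adjusted p = 0.0822 for EF and 0.0532 for PNP), as did the methods' t-test (0.192 and 0.164). EF and PNP were not separated on either probe set, except on Xl.7834.1.A1_at without EF replicate 2, where EF was higher by 0.62 (adjusted p = 0.0203 by limma).

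The S copy of *smo* was dim, above the ceiling on 8 arrays. Its log2 signals were 2.52, 2.39 and 2.89 in EF, 2.82, 2.70 and 2.73 in PNP and 2.37, 2.07 and 2.17 in LE, against 2.43, 2.32 and 2.25 in whole embryos. PNP lay above LE on every array, by 0.55 (adjusted p = 0.0144 by limma), and the call was lost without LE replicate 2 (0.48, adjusted p = 0.0635). The difference of PNP from whole embryos, 0.42, was not called on all arrays (adjusted p = 0.0562) but was without EF replicate 3 (adjusted p = 0.0325), in the methods' t-test on all arrays (adjusted p = 0.0453) and after median centring (0.57, adjusted p = 0.0109). That of EF from LE, 0.39, was called only without EF replicate 2 among the fits that left out 1 array (0.50, adjusted p = 0.0389). The mean ceiling lay 0.33 higher in PNP than in whole embryos, and what that shift adds to the difference of 0.42 was not tested.

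*hhip*, whose product binds Hedgehog ligands at the cell surface and keeps them from Ptch1, was read by a pair of dim L probe sets. Xl.17015.1.A1_at had log2 signals of 2.28, 2.49 and 2.56 in EF, of 2.29, 2.31 and 2.57 in PNP and of 2.27, 2.28 and 2.40 in LE, against 2.11, 2.02 and 1.94 in whole embryos. No whole-embryo array and 2 EF arrays passed the ceiling, and every EF array exceeded every whole-embryo array. EF was called higher than whole embryos, with a fitted difference of 0.42 (adjusted p = 0.0352 by limma). Where a tissue lay under the ceiling on all its arrays, a fold could be bounded. Such a bound sets the mean of the brighter tissue against a mean in which each dim array takes the higher of its signal and ceiling. Here it came to 1.21-fold. The EF mean of 2.44 lay itself at the mean ceiling of the EF arrays, 2.43, so this gives no minimum for the transcript. The ceiling itself averaged 2.43 in EF and 2.17 in whole embryos, a difference of 0.26, and the 2232 probe sets removed by the filter on dim signals had a median difference of 0.12. What these shifts add to the *hhip* value was not tested. The call was lost without EF replicate 2 or 3 or without any whole-embryo array (adjusted p of 0.0567 to 0.116) and after quantile normalization (0.33, adjusted p = 0.0749). A fit of EF and whole embryos alone also lost it (adjusted p = 0.0695), as did the methods' t-test (adjusted p = 0.0973).

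The second *hhip* probe set, Xl.9580.1.S1_at, did not follow the first. It had 2.44, 2.52 and 2.49 in EF, 2.66, 2.44 and 2.99 in PNP and 2.51, 3.00 and 2.85 in LE, against 2.31, 2.34 and 2.64 in whole embryos. The tissues overlapped in every comparison, none was called, and EF differed from whole embryos by 0.05 (95% interval -0.32 to 0.42).

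**Figure D3:**
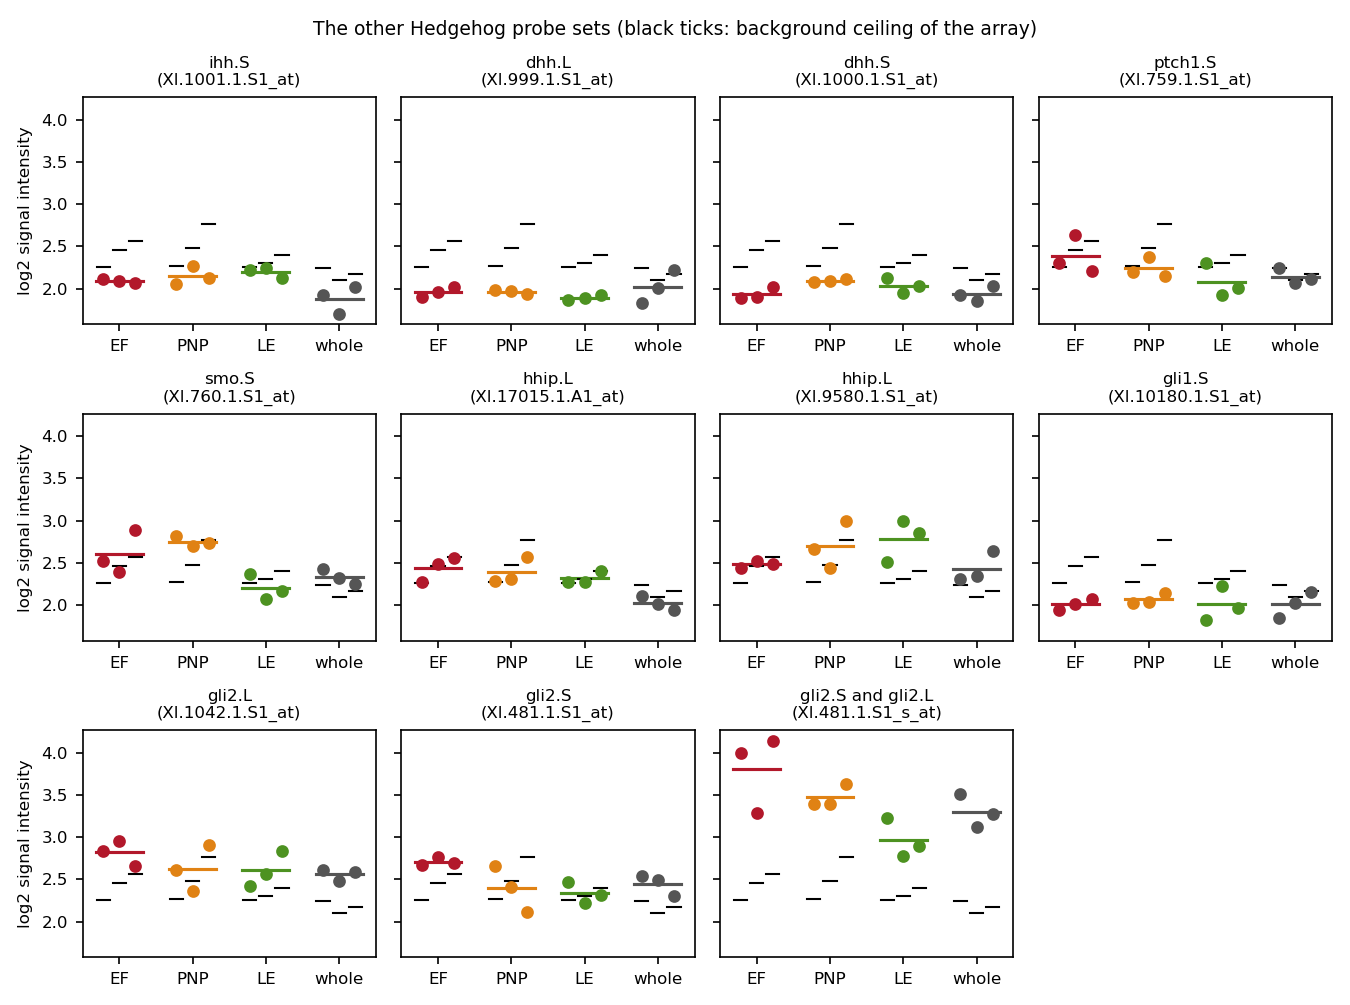
Log2 signal intensity (vertical axis) of the other Hedgehog probe sets, with the probe set that lists both *gli2* copies, by tissue (horizontal axis, whole embryos at the right as whole). Each point is 1 array, each colored line the mean of 3 arrays and each black tick the background ceiling of that array. All points of *ihh*, of the S copy of *dhh* and of *gli1* lie under the ceiling, and those of *ptch1* pass it on 4 arrays.

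Of the transcription factor genes, *gli3* was highest in EF and lowest in PNP. The L copy of this gene, whose product represses Hedgehog targets where ligand is lacking, had log2 signals of 7.78, 7.43 and 7.84 in EF, of 3.75, 3.83 and 4.48 in PNP and of 5.13, 4.48 and 5.16 in LE, against 5.39, 5.70 and 5.73 in whole embryos. Every EF array exceeded every other array, and every PNP array lay below every whole-embryo array. PNP and LE met at 4.48, the highest PNP and the lowest LE value.

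In *gli3*, EF exceeded whole embryos 4.22-fold, a log2 difference of 2.08 (SE 0.23, adjusted p = 4.88e-05 by limma), and PNP lay 3.00-fold below them, at -1.59 (SE 0.23, adjusted p = 0.000331). EF exceeded PNP 12.7-fold, at 3.66 (adjusted p = 2.83e-07 by limma), and LE 6.78-fold, at 2.76. PNP was lower than LE by 0.90 on the log2 scale (adjusted p = 0.0118 by limma), a call lost without PNP replicate 1 or 2 or LE replicate 3 (adjusted p of 0.0517 to 0.0528). The methods' t-test did not call it either (adjusted p = 0.158). LE differed from whole embryos by -0.68, which was not called (95% interval -1.19 to -0.18, adjusted p = 0.0887). The order was EF, whole embryos, LE and PNP, with whole embryos and LE not separated.

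*gli3* and *shh* thus had different orders of the tissues. PNP, highest in *shh*, was lowest in *gli3*, while LE, lowest in *shh*, was second lowest in *gli3*. EF had the highest *gli3* and an intermediate *shh*.

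*gli1*, the activator, was measured on its S copy only, which lay under the ceiling on all 12 arrays, between 1.83 and 2.23. *gli2*, which encodes the main activator in mouse neural tube, was dim on the probe sets of its single copies. The L copy had 2.84, 2.96 and 2.66 in EF, 2.61, 2.36 and 2.91 in PNP and 2.42, 2.56 and 2.84 in LE, against 2.61, 2.48 and 2.59 in whole embryos. The S copy had 2.67, 2.76 and 2.69 in EF, 2.66, 2.41 and 2.11 in PNP and 2.47, 2.22 and 2.32 in LE, against 2.54, 2.49 and 2.30 in whole embryos. In both copies all EF arrays lay above all whole-embryo arrays, by means of 0.26 each, and neither difference was called (adjusted p of 0.291 for L and 0.240 for S by limma). The mean ceiling differed between these tissues by the same 0.26, and what that shift adds to the *gli2* values was not tested. EF against PNP in the S copy, at 0.32, was called only when PNP replicate 1 was left out (0.45, adjusted p = 0.0498).

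A brighter probe set, Xl.481.1.S1_s_at, lists both *gli2* copies and therefore falls outside the rule of a single symbol. It was above the ceiling on all 12 arrays, at 4.0, 3.29 and 4.14 in EF, at 3.39, 3.39 and 3.63 in PNP and at 3.23, 2.78 and 2.90 in LE, against 3.51, 3.12 and 3.27 in whole embryos. EF was higher than LE on every array, by 0.84 (SE 0.21, adjusted p = 0.0110 by limma). EF differed from whole embryos by 0.51 (95% interval 0.05 to 0.97, adjusted p = 0.114), with overlapping arrays, and no other comparison of this probe set was called.

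**Figure D4:**
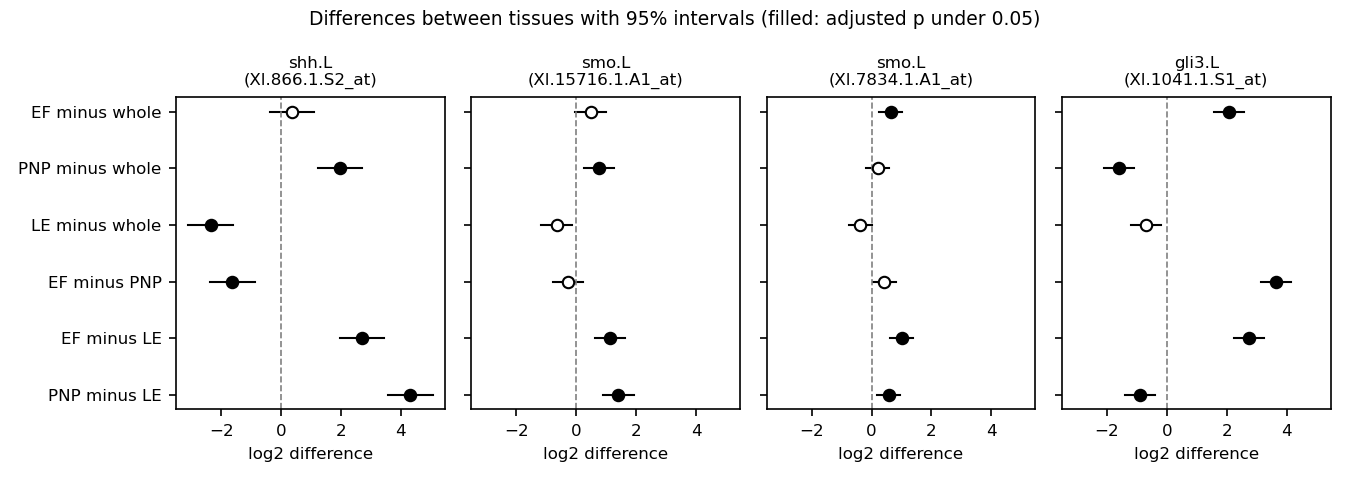
Log2 difference of each of the 4 bright Hedgehog probe sets (first tissue minus second, whole for whole embryos) in the 6 comparisons, with 95% intervals from limma. Filled points were called at an adjusted p under 0.05 over all 15491 probe sets. *gli3* in EF minus PNP, at 3.66, and *shh* in PNP minus LE, at 4.32, lie farthest from 0.

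Over the 14 probe sets, 7.14% to 35.7% were called in a comparison, beside 8.62% to 25.6% of all probe sets tested, and nothing particular to the Hedgehog genes follows from these shares. EF was higher than whole embryos in 3 of the 14 and lower in 0, beside 19.4% of all probe sets called, 8.83% higher and 10.6% lower. PNP was higher than whole embryos in 2 and lower in 1, beside 22.3% called, 10.2% higher and 12.1% lower. LE was higher in 0 and lower in 1, beside 8.62% called, 3.23% higher and 5.40% lower. Between EF and PNP, EF was higher in 1 and lower in 1, beside 23.5% called, 13.8% higher and 9.73% lower. Against LE, EF was higher in 4 and lower in 0, beside 24.9% called, 14.1% higher and 10.7% lower. PNP was higher than LE in 4 and lower in 1, beside 25.6% called, 13.0% higher and 12.6% lower. The median difference over the 14 probe sets was 0.26 for EF minus whole embryos and 0.18 for PNP minus whole embryos, against medians over all probe sets of 0.10 and 0.07. For LE minus whole embryos it was -0.08, against 0.04 over all. The 3 comparisons with whole embryos share the whole-embryo arrays, so they are not independent of one another.

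A wider set of Hedgehog genes was read from the brightest probe set of each gene. Of 77 genes listed, 33 were measured by a probe set with 1 symbol, namely 3 of 13 for ligand release, 2 of 5 receptor partners, 13 of 25 for control of Smo and Gli, 5 of 16 for ciliary transport and 10 of 18 target genes. Genes such as *sufu* and *foxa2* were not analysed here. EF was higher than whole embryos in 7 of the 33 and lower in 1, beside 22.3% of 6504 genes called, 10.1% higher and 12.2% lower. PNP was higher in 5 and lower in 2, beside 24.1% called, 10.7% higher and 13.4% lower, and LE was higher in 1 and lower in 0, beside 9.03% called, 3.11% higher and 5.92% lower. Against PNP, EF was higher in 5 and lower in 3, beside 26.3% called, 15.1% higher and 11.2% lower. Against LE, EF was higher in 8 and lower in 1, beside 27.8% called, 15.9% higher and 11.8% lower. PNP was higher than LE in 4 and lower in 2, beside 28.6% called, 14.6% higher and 14.0% lower. The median difference of the 33 genes was 0.20 for EF minus whole embryos and 0.14 for PNP minus whole embryos.

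*boc*, a receptor partner that binds Hedgehog ligands together with Ptch1, was highest in EF. It had log2 signals of 3.92, 5.08 and 4.19 in EF, of 2.93, 3.08 and 2.83 in PNP and of 2.42, 2.52 and 2.82 in LE, against 3.36, 3.62 and 2.93 in whole embryos, and no EF array overlapped another tissue. In *boc*, EF exceeded whole embryos by 1.10 (SE 0.27, adjusted p = 0.0120 by limma), PNP by 1.45 (adjusted p = 0.00162) and LE by 1.81 (adjusted p = 0.000285). A fit of EF and whole embryos alone lost the first of these calls (adjusted p = 0.0612). The methods' t-test called none of the 3 (adjusted p = 0.189 for whole embryos, 0.0973 for PNP and 0.0555 for LE). The other receptor partner measured, *cdon*, lay between 2.11 and 2.85 and was called in none of the 6 comparisons.

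*foxf1*, a target gene of Hedgehog signaling in the gut mesoderm of mice, was highest in LE. Its signals were 2.99, 2.76 and 3.07 in EF, 2.57, 2.64 and 3.05 in PNP and 5.20, 5.19 and 5.08 in LE, against 4.18, 3.76 and 3.83 in whole embryos. All LE arrays lay above all whole-embryo arrays, and these above all EF and PNP arrays. *foxf1* was higher in LE than in whole embryos by 1.23 (adjusted p = 0.000564 by limma), lower in EF by 0.98 on the log2 scale (adjusted p = 0.000956), and lower in PNP by 1.17 (adjusted p = 0.000218). The methods' t-test called none of these 3 (adjusted p of 0.0557 to 0.0687). *foxf1* also stood in the list of lateral plate and blood markers, whose 7 genes summed to 234 to 277 in LE, against 161 to 171 in whole embryos. The brightest of them in LE were *gata2*, at a mean of 6.81, and *gata3*, at 6.10, which the study lists as endoderm genes. Of the 7, 2 were called higher in LE than in whole embryos, *foxf1* among them, 1 lower and 4 not.

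*mycn*, a proliferation gene that Shh induces in cerebellar precursors of mice, was highest in EF and lowest in PNP. The probe set of the L copy, of a type that may also read related transcripts, had 6.67, 5.97 and 5.16 in EF, 3.16, 2.76 and 3.29 in PNP and 4.36, 4.29 and 4.52 in LE, against 4.01, 4.87 and 5.00 in whole embryos. EF exceeded PNP by 2.86 (adjusted p = 5.60e-05 by limma) and LE by 1.54 (adjusted p = 0.00492). PNP lay below whole embryos by 1.56 on the log2 scale (adjusted p = 0.00568). EF exceeded whole embryos by 1.31 (adjusted p = 0.0171 by limma), a call lost without EF replicate 1 (0.94, adjusted p = 0.0650) or whole-embryo replicate 1 (1.00, adjusted p = 0.0706). PNP was lower than LE by 1.32 on the log2 scale (adjusted p = 0.0119), which was lost without PNP replicate 2 (adjusted p = 0.0549). The methods' t-test did not call PNP against whole embryos (adjusted p = 0.0891), EF against LE (0.105) or EF against whole embryos (0.217). The S copy was dimmer, at 3.56, 2.67 and 3.57 in EF and under the ceiling on all 3 PNP arrays, against 2.30, 2.91 and 2.39 in whole embryos. EF was called higher than whole embryos by 0.73 (adjusted p = 0.0447 by limma) though their arrays overlapped, and exceeded PNP at least 1.69-fold (adjusted p = 0.00196).

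*ext2*, which encodes the partner of Ext1 in making heparan sulfate, was named after its values were seen. It had 6.38, 6.08 and 5.19 in PNP and 4.32, 2.96 and 4.57 in LE, and PNP exceeded LE by 1.93 (3.82-fold, adjusted p = 0.0102 by limma), on a probe set of a type that may read more than 1 transcript. The other probe sets of *ext2* gave -0.22 and 0.05 for PNP minus LE, neither called (adjusted p of 0.241 and 0.823), and the methods' t-test did not call the first (adjusted p = 0.129). On this probe set no other comparison was called.

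The remaining calls against whole embryos were under 2-fold. There, *fem1b*, whose product takes part in protein breakdown, was higher in both EF, by 0.85 (adjusted p = 0.00256 by limma), and PNP, by 0.69 (adjusted p = 0.0086). *ext1*, needed to make the heparan sulfate chains along which Hedgehog ligands spread, was higher in EF by 0.82 (adjusted p = 0.0334), and *ccnd1*, a cyclin gene, by 0.57 (adjusted p = 0.00651). *kif3a*, a motor subunit of ciliary transport, was higher in PNP by 0.85 (adjusted p = 0.014). The calls of *fem1b* and *ccnd1* held whichever array was left out. In EF against whole embryos, however, the methods' t-test called none of the wider genes. Over all 15491 probe sets it called 296 higher and 524 lower there, against 1368 and 1635 by limma. The call of *ext1* was lost without EF replicate 2 or 3 or any whole-embryo array (adjusted p of 0.0521 to 0.126), and that of *kif3a* without PNP replicate 1 or whole-embryo replicate 2 (adjusted p of 0.0521 to 0.0564). In PNP, *foxc2* was higher by 0.49 (adjusted p = 0.0317), a call lost without any PNP array or without whole-embryo replicate 1. *gsk3a* lay at background, above the ceiling on 1 PNP array and on no other. Its PNP mean of 2.46 was under the mean ceiling of the PNP arrays, 2.51, so its call in PNP (adjusted p = 0.0335, lost without PNP replicate 1 or 3 or any whole-embryo array) gives no fold. *vax2* was higher in PNP by 0.36 (adjusted p = 0.0478) and lost its call in 10 of the 12 fits that left out 1 array, all but those without EF replicate 2 or LE replicate 3. The mean ceiling lay 0.33 higher in PNP than in whole embryos, and what that shift adds to the *vax2* value was not tested. The ventral forebrain genes *nkx2-1* and *nkx2-4*, named after their values were seen, were dim and exceeded whole embryos in EF. *nkx2-1* had 2.77, 2.86 and 3.33 in EF against 2.29, 2.55 and 2.37 in whole embryos, a difference of 0.58 (adjusted p = 0.0164 by limma) whose call needed EF replicate 3 and whole-embryo replicate 1 (adjusted p of 0.0569 to 0.0629 without them). *nkx2-4* had 2.67, 2.48 and 3.03 in EF against 1.87, 2.04 and 2.42 in whole embryos, a difference of 0.62 (adjusted p = 0.0295) whose call needed EF replicates 1 and 3 and whole-embryo replicates 1 and 2 (adjusted p of 0.0605 to 0.115 without them). The mean ceiling lay 0.26 higher in EF than in whole embryos, and what that shift adds to *nkx2-1* and *nkx2-4* was not tested.

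**Figure D5:**
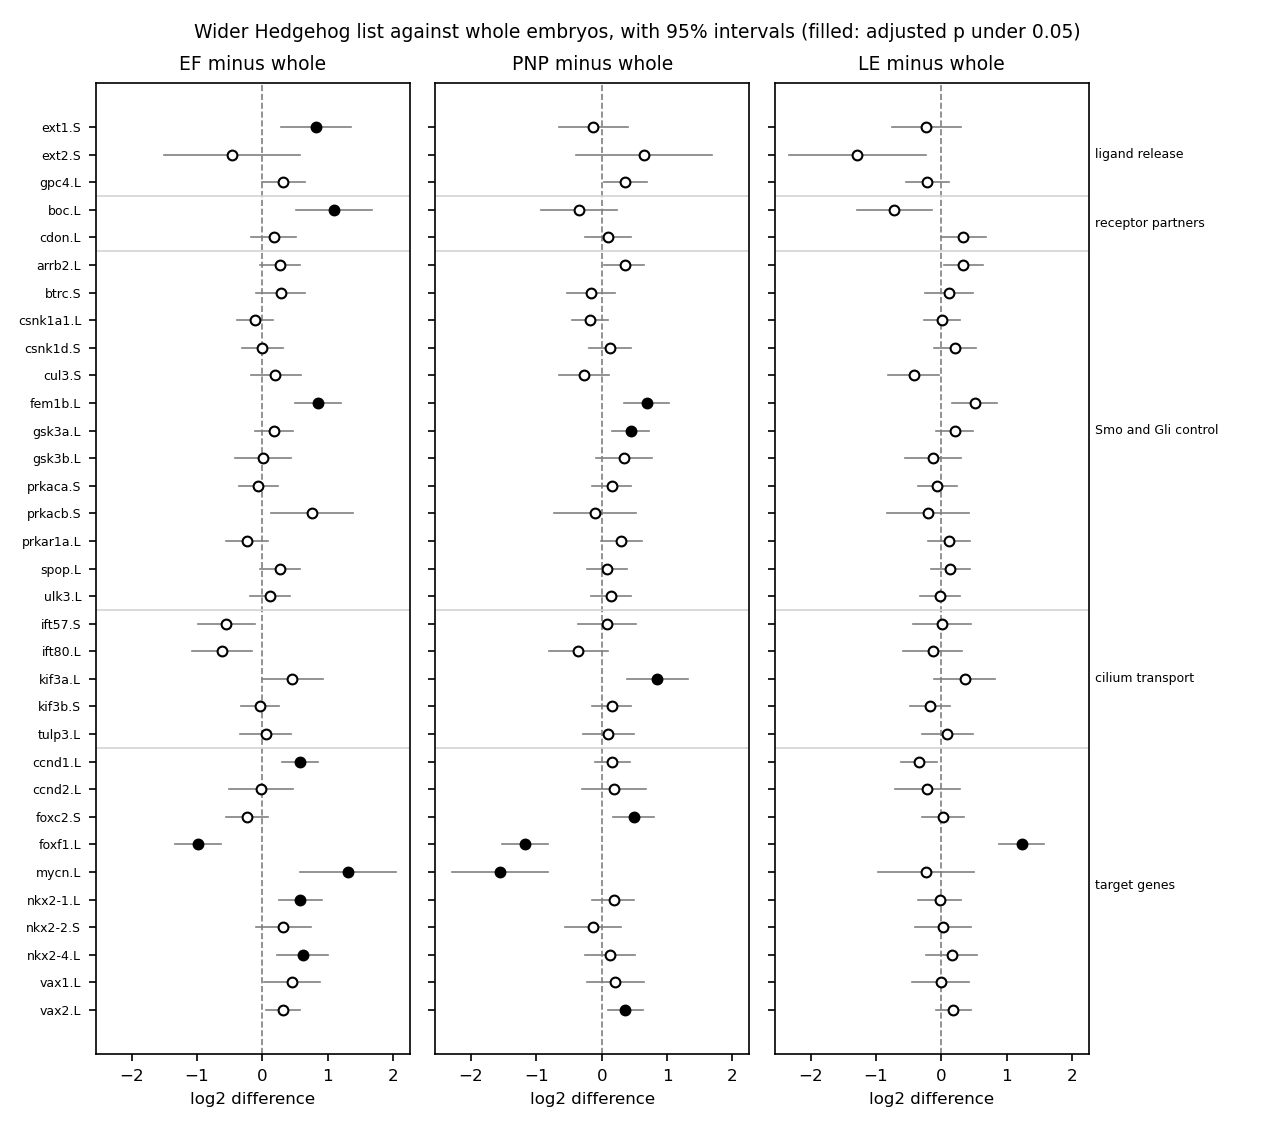
Log2 difference of each of the 33 wider Hedgehog genes from whole embryos, in EF, PNP and LE, ordered by role. Filled points were called at an adjusted p under 0.05 in limma. *mycn*, *boc* and *foxf1* are the 3 genes called with a difference of at least 2-fold, *foxf1* upward in LE and downward in PNP.

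The probe sets whose pattern was most like each of the bright members were found by Pearson's r over the 12 arrays, among 8215 probe sets with 1 symbol that passed the filter on dim signals. For *shh* these were *notch1* (r = 0.966), *sparc* (0.960) and *cltb* (0.946). For *gli3* they were *mycl* (0.983), *robo3* (0.980) and *pds5b* (0.976), and for *smo*, on Xl.7834.1.A1_at, *pim3* (0.936), *nova2* (0.927) and MGC81882 (0.923). The arrays are 4 groups of 3, so these correlations mostly restate differences between tissues. For the dim members the closest probe sets reached r of 0.823 for *gli1* to 0.954 for *ihh*, over signals that hardly left the background.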

How the data were processed

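RNA of stage 15 embryos was measured on 12 Affymetrix *X. laevis* arrays, 3 per tissue. The authors deposited linear signal intensities, processed per the labels with RMA, in 1 column per array and 0 of other series. The study's methods also divide signals by those of whole embryos, a step absent from the deposited intensities. Their floor lies low for RMA, and no source used here gives another background step, so dim signals and their folds are uncertain.

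Intensities were taken to log2 with no further scaling. Of 15611 probe sets, 120 controls were left out. A single symbol was annotated for 9304 of the rest, more than 1 for 195, and 5992 had none. The gene table (assembly v10.1) held 9227 of the single-symbol identifiers and served for names only. Groups were compared with limma 3.58.1 (lmFit and eBayes, R 4.3.3) with Benjamini-Hochberg adjustment, tested on simulated data first. Differences are first tissue minus second. All member probe sets were named. Wider genes were named if called against whole embryos with at least a 2-fold difference, and the others after their values were seen. The members, lists and tests were chosen with earlier results of these data known. The alternatives tried were leaving out each array, a replicate block, a fit to the compared pair alone, the methods' t-test, median centring, quantile normalization, a dim filter, a minimum of 2-fold and averaging the probe sets of a gene. Plots were drawn with matplotlib 3.10.9 in Python 3.11.15. Groups of 3 arrays limit the precision, and no depth can be given for arrays.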

Additional observations from a re-analysis of the deposited data

Results flagged for a closer look

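For 4 genes, called differences of 2 regions from whole embryos ran in opposite directions. The difference between the regions, given with its limma test, is the gap between those same differences and so no independent evidence of them. *shh* was higher in PNP and lower in LE, and the changes differed by 4.32 on the log2 scale (adjusted p = 1.14e-06). *gli3* was higher in EF and lower in PNP, and the changes differed by 3.66 (adjusted p = 2.83e-07). *foxf1* was lower in EF and in PNP and higher in LE, with differences of -2.22 for EF minus LE (adjusted p = 1.04e-06) and -2.40 for PNP minus LE (adjusted p = 2.53e-07). *mycn* was higher in EF and lower in PNP, and the changes differed by 2.86 (adjusted p = 5.60e-05). All these changes share the whole-embryo arrays. Groups of 3 arrays were too small for a test of single outlying arrays.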

How the results depend on the processing

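Of 1572 recomputed differences of the 14 Hedgehog probe sets, 1473 kept their direction and their side of the threshold, 41 lost the call, 8 gained one and 50 changed sign. Most of the 84 differences behind them were not called as deposited and so had no call to lose. The 41 losses are therefore no share of all recomputed differences that could lose one. The sign changes fell on 22 differences that were at most 0.10 in size and not called, and none was called after the change (lowest adjusted p = 0.609 by limma). The 6 comparisons are EF, PNP and LE with whole embryos, EF with PNP, EF with LE and PNP with LE, called the first to the sixth here. The methods' t-test, adjusted over all probe sets, called 1 member of 3 in the first, 0 of 1 in the third, 1 of 2 in the fourth and 1 of 4 in the fifth. Over all 15491 probe sets it also called fewer than limma. It called 296, 409, 30, 764, 1039 and 992 higher in the first to the sixth. By limma these were 1368, 1585, 500, 2138, 2191 and 2020. Those lower were 524, 678, 55, 580, 1123 and 1302, against 1635, 1869, 836, 1508, 1661 and 1951 by limma. Among the members, the t-test lost *shh* in LE against whole embryos (adjusted p = 0.10), EF against PNP (0.103) and EF against LE (0.0580), and *gli3* in PNP against LE (0.158). Fits of 2 groups called 1 member in the first, a 2-fold limit 1 in the first and 2 of 5 in the sixth, and median centring 6 in the second in place of 3. Median centring moved the median difference of all probe sets from whole embryos to 0.18 in EF, 0.22 in PNP and 0.14 in LE, and gave 3372 higher and 1537 lower calls in PNP, against 1585 and 1869 as deposited. With 1 array left out, 1 to 3, 2 to 4, 1, 2 to 3, 4 to 5 and 3 to 5 members were called in the first to the sixth.

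Of the wider genes, the t-test called 0 of 8, 2 of 7, 0 of 1, 2 of 8, 3 of 9 and 3 of 6 in the first to the sixth. Fits of 2 groups called 4 in each of the first, the second and the fourth, where the 2-fold limit called 2 each, with 4 in the fifth and 3 in the sixth. In the third, median centring, quantile normalization and averaging over the probe sets of a gene called 2 each. With 1 array left out, 4 to 9, 3 to 7, 1 to 2, 4 to 8, 6 to 10 and 4 to 7 genes were called. The cause of these shifts was not tested.

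The differences that changed sign were of dim probe sets and moved as follows with 1 array left out. *dhh* ran from -0.15 to 0.04 in the first, from -0.15 to 0.05 in the second and from -0.03 to 0.03 in the fourth for the L copy, and from -0.04 to 0.05 in the first for the S copy. *ihh* ran from -0.11 to 0.00 in the sixth and *ptch1* from -0.17 to 0.02 in the third. *hhip* ran from 0.00 to 0.14 in the fourth and from -0.02 to 0.12 in the sixth on Xl.17015.1.A1_at, and from -0.01 to 0.16 in the first and from -0.24 to 0.04 in the sixth on Xl.9580.1.S1_at. *gli1* ran from -0.09 to 0.07, -0.02 to 0.14 and -0.11 to 0.09 in the first to the third, and from -0.09 to 0.11 and -0.02 to 0.18 in the fifth and the sixth. *gli2* ran from -0.08 to 0.19, -0.07 to 0.14 and -0.12 to 0.15 in the second, the third and the sixth for the L copy, and from -0.19 to 0.09 and -0.08 to 0.20 in the second and the sixth for the S copy. Median centring turned the sign of *dhh* L in the first (0.02) and the second (0.09), *ptch1* in the third (0.05), *hhip* in the fourth (-0.01 on Xl.17015.1.A1_at), *gli1* in the first (0.08), the third (0.10) and the fifth (-0.02) and *gli2* S in the second (0.10). Quantile normalization turned that of *dhh* S in the first (-0.09) and the third (0.00), *dhh* L in the fourth (0.00), *ptch1* in the second (-0.02), *hhip* in the first (-0.02 on Xl.9580.1.S1_at), *gli1* in the second (-0.05) and *gli2* L in the third (0.00). Of the wider genes named, *nkx2-4* ran from -0.12 to 0.07 in the sixth and turned after median centring (0.00), and *nkx2-1* ran from -0.08 to 0.05 in the third and turned likewise (0.08), with no call.

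The replicate numbers were not taken to pair the arrays. Same-numbered arrays correlated at -0.172 to 0.208 in their deviations from the tissue means, with 3 of 18 pairs over 0.1, and 9 of 36 best matches were to the own number. With the replicate number as a block, the members called stayed at 3, 3, 1, 2, 4 and 5, and the wider genes called were 8, 5, 1, 9, 10 and 5. Signals near the background ceiling limit what can be said of *ihh*, *dhh*, *ptch1*, *hhip*, *gli1* and the single *gli2* copies.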
